A study of Mus musculus with 47 samples.

Results

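The cytosolic ribosomal protein genes were followed in RNA-sequencing libraries of brainstem and hippocampus. Members were protein-coding mouse genes whose symbol begins with Rpl or Rps and a number, or is Rplp0 to Rplp2 or Rpsa, after removal of pseudogenes and of the Rps6k kinases. Of 29858 genes with a row in both count tables, 85 were members. They comprised 43 proteins of the large subunit, 31 of the small subunit, the 3 proteins of the ribosomal stalk, 7 paralogues and *Rps19bp1*, a nucleolar binding protein of Rps19 that the symbol rule takes in although it is not a subunit. In each region 81 members had a mean count of at least 50 and were tested, and *Rpl3l*, *Rpl39l*, *Rpl36al* and *Rps10* did not.

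The mice were C57BL/6 males. TG mice were homozygous for human A30P alpha-synuclein under the Thy1 promoter, which is active in neurons of the central nervous system, and the WT mice came from a parallel colony of the same outcross. From weaning to about a year of age both genotypes received a standard diet (SD) or a high-fat diet (HFD). Brainstem, here the medulla, held 5 libraries of WT SD and 6 each of WT HFD, TG SD and TG HFD, and hippocampus held 6 in each of the 4 groups. WT and TG mice came from separate colonies, so genotype and colony cannot be told apart.

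Ribosomal proteins and ribosomal RNA form the small subunit, which reads the mRNA, and the large subunit, which joins the amino acids. Their mRNAs are abundant in nearly every cell. Many of them start with a C followed by a run of pyrimidines, the 5′ terminal oligopyrimidine (TOP) motif, through which the mTOR pathway controls their translation. Levels of mRNA, as measured here, do not show that translational control.

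The start of the transcript carries the TOP motif, so the 15 bases before and 15 from the annotated start (RefSeq, GRCm38.p6) are shown for 4 members with the motif and 3 without it at this base. Capitals mark the unbroken run of C and T that begins at the annotated start with a C and holds at least 4 further pyrimidines. *Rps6*, the subunit protein phosphorylated downstream of mTOR, and *Rps15a* were lower in hippocampus than in brainstem, while *Rplp2*, a stalk protein, and *Rps21* were higher, as described below. *Rps21* has another annotated start without the motif, which is not shown. *Rps2* was higher in hippocampus, and *Rpl9* and *Rps28* were among the members with the smallest p between genotypes.
Rps6, chr4:86857353-86857382, minus strand: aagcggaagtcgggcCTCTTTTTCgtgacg
Rps15a, chr7:118116133-118116162, minus strand: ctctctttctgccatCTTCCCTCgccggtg
Rplp2, chr7:141447636-141447665, plus strand: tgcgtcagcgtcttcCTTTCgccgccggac
Rps21, chr2:180257364-180257393, plus strand: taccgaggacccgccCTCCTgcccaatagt
Rps2, chr17:24720048-24720077, plus strand: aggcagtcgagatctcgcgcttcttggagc
Rpl9, chr5:65391417-65391446, minus strand: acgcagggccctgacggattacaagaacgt
Rps28, chr17:33824548-33824577, minus strand: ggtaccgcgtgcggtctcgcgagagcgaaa

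RefSeq promoters were matched for 65 of the members, at 77 starts. The motif, searched on the transcribed strand only, stood exactly at the start in 14 of the 77 (18.2%), against 2.50% of all 32841 promoters. Anywhere in the 15 bases from 5 before to 10 from the start it was found in 41.6% and 18.3%. A missing motif says only that these letters are not at the annotated base.

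Read depth and tissue identity were checked first. Total counts lay between 10020784 and 15078812 per library in brainstem and between 11945971 and 17328447 in hippocampus. The human transgene had 36959 to 72863 counts in the TG libraries and 6 to 50 in the WT libraries. The summed level of 5 medulla markers was 316 to 548 CPM (counts scaled to a common library size) in brainstem, and at most 0.505 CPM in hippocampus, where 2 of the 5 had a row. Hippocampal markers summed to 396 to 467 CPM in hippocampus and 31.3 to 50.4 CPM in brainstem. Choroid plexus markers (5 of 5 with a row) ranged from 12.1 to 3000 CPM among brainstem libraries, with group medians of 52.4 in WT SD, 482 in WT HFD, 877 in TG SD and 153 in TG HFD, and from 37.7 to 313 CPM in hippocampus. The part of choroid plexus RNA in the results below was not tested.

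Members were highly expressed. Their levels are compared as CPM per kilobase of transcript, averaged over the libraries of a region. The median tested member stood at 197 in brainstem and 184 in hippocampus, against 10.1 and 10.4 for all tested genes, and 70 of the 81 lay above the 90th percentile of all tested genes in each region. In brainstem the highest were *Rpl9* at 492 ± 77.3 (SD over 23 libraries), *Rpl26* at 435 ± 51.5 and *Rps27a*, which is made as a fusion with ubiquitin, at 397 ± 49.3. These neighbours lay within 1 SD of each other. In hippocampus the order began with the stalk protein gene *Rplp1* at 554 ± 115 CPM per kilobase (24 libraries), then *Rpl9* at 446 ± 63.1 and *Rps29* at 432 ± 54.2. The lowest tested members were the same 3 genes in both regions, namely *Rps19bp1* (9.05 ± 1.13 in brainstem, 11.5 ± 1.47 in hippocampus), *Rpl13a* (12.5 ± 1.54 and 12.3 ± 1.24) and *Rps27l* (20.9 ± 3.34 and 12.7 ± 1.84). The annotated transcripts of *Rps15a* and *Rps20* were 5130 and 3706 bases long, so their levels per kilobase are uncertain.

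Ribosomal protein genes have many processed pseudogenes, and reads of 75 bases can match several copies. Of the 85 members, 80 shared at least some 75-base windows of their transcript with transcripts of other genes, the median share was 48.7%, and 41 members shared over 50% of their windows. The share reached 98.5% for *Rps27*, 92.5% for *Rpl5* and 84.2% for *Rpl9*. The counts of these members are uncertain, since how such reads were assigned is not given in the sources used here. *Rps10*, a small subunit protein with 72.1% shared windows, had 8 to 25 counts per library in brainstem and 16 to 41 in hippocampus. *Rpl13a* and *Rpl24*, with 56.3% and 80.9% shared windows, also lay far below the median member.

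Most paralogues stood below their parent genes. *Rpl3l*, known from striated muscle, had at most 10 counts in any library and *Rpl39l*, known from testis, at most 4. Their parents stood at 392 and 145 CPM per kilobase in brainstem. *Rpl36al* stood at 3.32 ± 0.847 CPM per kilobase in brainstem, against 170 ± 16.3 for *Rpl36a*. *Rpl7l1* reached 30.9 ± 2.86 against 239 ± 22.9 for *Rpl7*, and *Rps27rt* 103 ± 18.8 against 350 ± 49.0 for *Rps27*. *Rps27rt* and *Rps27* shared 90.3% and 98.5% of their windows. The exception was *Rpl22l1*, at 53.4 ± 8.47 against 46.6 ± 3.69 for *Rpl22* in brainstem and 40.6 ± 6.56 against 45.1 ± 2.83 in hippocampus, differences within 1 SD. *Rpl10l* was not analysed here.

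The members varied together from library to library. After removal of group means, the median correlation between pairs of members was 0.723 over 23 brainstem libraries and 0.803 over 24 hippocampus libraries. The same measure was 0.589 and 0.531 for nuclear genes of complex I, 0.467 and 0.427 for proteasome subunits, 0.344 and 0.251 for mitochondrial ribosomal proteins, and -0.003 and -0.002 over all pairs of tested genes. These correlations share libraries, depth and, for copies, reads. They also share any trend of a library on transcript length, for which values are given with the member means below. Members with at most 50% shared windows still had medians of 0.672 and 0.783. The members that followed the others least were *Rpl7l1* (0.347), *Rps15a* (0.418) and *Rps19bp1* (0.453) in brainstem, as correlations with the mean of all other members. In hippocampus they were *Rps27l* (0.476), *Rps19bp1* (0.499) and *Rpl7l1* (0.503), while *Rps15a* stood at 0.841.

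The mean log2 CPM of the 81 tested members differed more between libraries of a group than between groups. In brainstem it was 6.92 ± 0.17 (SD) in WT SD (n = 5), 7.0 ± 0.18 in WT HFD, 6.94 ± 0.09 in TG SD and 6.87 ± 0.15 in TG HFD (n = 6 each). The 5 WT SD libraries stood at 6.77, 6.79, 6.88, 6.97 and 7.19, and this range overlapped that of every other group. In hippocampus (n = 6 each) the means were 6.83 ± 0.10, 6.81 ± 0.08, 6.87 ± 0.19 and 6.86 ± 0.12 in the same order. In TG SD, 4 libraries lay between 6.70 and 6.79 and the other two at 7.07 and 7.14. The members took up 1.07% to 1.55% of all counts in a library. A log2 slope per doubling of transcript length was computed for each library over all tested genes. In brainstem the highest slope, 0.10 in a TG HFD library, came with the lowest member mean, 6.60. The lowest slope there, -0.11 in a WT HFD library, came with the highest, 7.26. In hippocampus the lowest slopes, -0.0845 and -0.075, belonged to the TG SD libraries at 7.07 and 7.14. The part of transcript length in these levels was not tested.

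**Figure D1:**
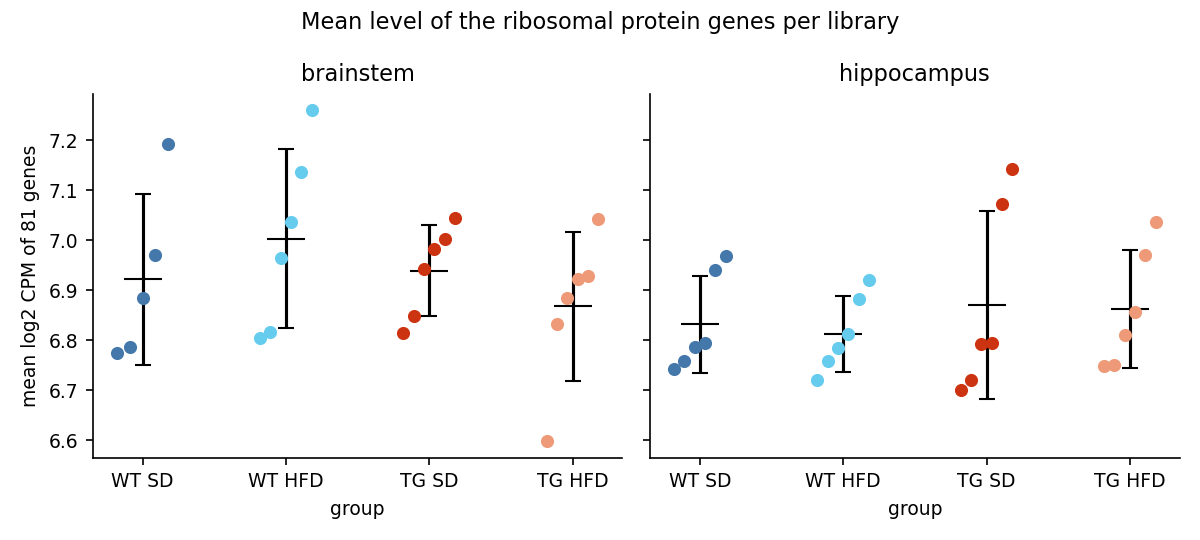
Mean log2 CPM of the 81 tested ribosomal protein genes (y axis) in each library of brainstem (left) and hippocampus (right), by group, with the mean and SD of the group in black. The groups overlap in both regions, and the lowest library, at 6.60, belongs to TG HFD of brainstem.

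The comparisons within each region asked whether genotype, diet or their interaction changed these genes. Genes were tested with edgeR's quasi-likelihood model, in which 4 surrogate variables absorb unknown sources of variation. A differentially expressed gene (DEG) had to pass 0.05 after Benjamini-Hochberg adjustment and to change by 0.3 or more on the log2 scale, up or down. No member was a DEG in any of the 10 comparisons (0 of 81 in each). All tested genes gave 0.142% DEGs for TG SD/WT SD and 0.0525% for TG HFD/WT HFD in brainstem, 0.0904% and 0.226% in hippocampus, and 0.0% for WT HFD/WT SD and 0.0075% or less for TG HFD/TG SD and the interaction in either region. In the 4 genotype comparisons, 76 to 79 of the 81 members had a 95% interval of the log2 fold change inside ±0.3, and in the 4 diet comparisons 79 or 80. Without surrogate variables the standard errors were larger, and in these 8 comparisons 42 to 54 members in brainstem and 53 to 77 in hippocampus had such an interval. The lowest number in hippocampus, 53, was for TG HFD/WT HFD. For the interaction, 74 of 81 members in brainstem and 75 in hippocampus had such an interval with surrogate variables. Without them only 14 and 48 did, so interaction changes beyond ±0.3 were not bounded for most brainstem members.

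Most members lay slightly above 0 in both genotype comparisons of hippocampus. For TG SD/WT SD, 70 of 81 members had a fold change above 0, with a median of 0.051 (log2) against -0.00058 for all 13272 tested genes. An unadjusted p of 0.05 or less was reached by 22 members, all higher in TG, or 27.2%, against 9.08% of all tested genes. Without surrogate variables 66 were above 0 with a median of 0.058, and 3 members higher and 1 lower reached this p, against 5.48% of all tested genes. For TG HFD/WT HFD, 67 of 81 were above 0, the median was 0.056 against -0.0054, and 19 members (23.5%, all higher) reached this p against 11.3% of all tested genes. Without surrogate variables the median was 0.084, and 20 members higher and 4 lower reached it, against 21.9%. Both subunits had alike medians, 0.051 to 0.059. These 2 comparisons use different libraries of the same fit. Members vary together, so they are not independent observations, and both medians were below 0.13, the SD between hippocampus libraries of the member mean. The group median of that mean was 6.79 in both WT SD and TG SD. Members with at most 50% shared windows had medians of 0.050 and 0.052.

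The diet comparisons in hippocampus gave medians of 0.0080 in WT and 0.011 in TG, with 1 member higher and 3 lower in WT, and 1 and 1 in TG, passing the unadjusted threshold (4.94% and 2.47% of members against 6.4% and 7.08% of all tested genes). The interaction had a median of 0.0072, with 2 members higher and 1 lower (3.7% against 5.98%).

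In brainstem the median for TG SD/WT SD was 0.0013, the same as for all genes, with 6 members higher and 6 lower by unadjusted p (14.8%, against 10.5% of all tested genes). For TG HFD/WT HFD the median was 0.054, 77 of 81 were above 0 and 13 were higher and 1 lower at this p (17.3% against 5.59%). This direction turned without surrogate variables, where the median was -0.099, only 15 of 81 were above 0, and 23 members were lower and 0 higher (28.4% against 19.7%). With 2 surrogate variables it was -0.036. The interaction of genotype and diet had a median of 0.053, with 6 members higher and 0 lower (7.41% against 4.83%), and turned in the same way, to -0.13. HFD against SD gave medians of -0.036 in WT, with 7 members lower and 0 higher (8.64% against 5.43%), and 0.023 in TG (6.17% against 6.91%). They were 0.050 and -0.059 without surrogate variables. No direction is given for the members in these brainstem comparisons.

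**Figure D2:**
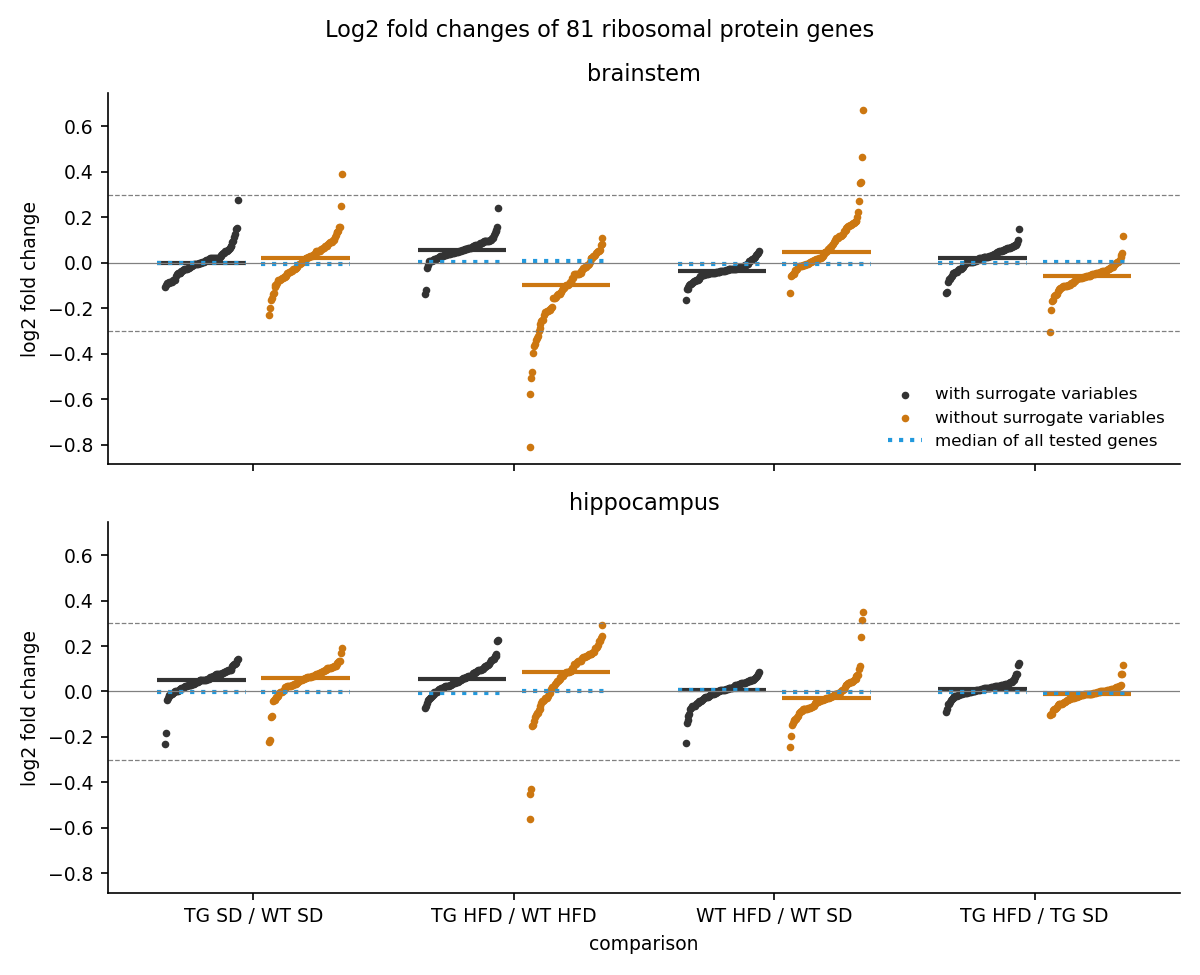
Log2 fold change (y axis) of each of the 81 members in 4 comparisons (x axis), in brainstem (top) and hippocampus (bottom), from edgeR with 4 surrogate variables (dark) and without any (orange). Solid bars are member medians, dotted bars the medians of all tested genes, and dashed lines mark ±0.3. The member median of TG HFD/WT HFD in brainstem is 0.054 with surrogate variables and -0.099 without, while both hippocampus genotype comparisons stay above 0.

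*Rps27rt*, a retrotransposed copy of *Rps27*, and *Rpl9*, of the large subunit, were the members that passed an adjusted p of at most 0.05 in edgeR's test without reaching the fold threshold. *Rps27rt* in brainstem stood at 26.9, 29.6, 33.6, 38.8 and 43.6 CPM in WT SD, and at a lowest, median and highest of 38.8, 44.9 and 52.0 CPM in TG SD. The ranges overlapped between 38.8 and 43.6. The fit gave a log2 fold change of 0.27 ± 0.059 (SE) with an adjusted p of 0.032, a threshold passed by 0.247% of all tested genes. Over 33 alternatives and libraries left out, the fold change was 0.22 to 0.39 and the adjusted p 0.0105 to 0.788. In hippocampus the same gene had medians of 34.7 CPM in WT SD and 34.6 CPM in TG SD.

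*Rpl9* in hippocampus had a lowest, median and highest of 254, 269 and 346 CPM in WT SD and of 277, 299 and 400 CPM in TG SD. In TG SD, 2 libraries at 397 and 400 CPM stood above every WT SD library and the other four overlapped them. The log2 fold change was 0.14 ± 0.029 (SE, adjusted p = 0.018; 0.151% of all tested genes passed 0.05), and was 0.13 to 0.19 over 34 alternatives, with adjusted p from 0.00135 to 0.964. Its pseudogene *Rpl9-ps6* had medians of 83.9 and 88.8 CPM, and 84.2% of the windows of *Rpl9* are shared with copies such as this. In brainstem *Rpl9* had a log2 fold change of 0.15 ± 0.037 (adjusted p = 0.0996) for the same comparison. *Rpl5*, which with Rpl11 binds Mdm2 in the nucleolar stress response, had the next smallest p in hippocampus, with medians of 231 and 241 CPM and a log2 fold change of 0.12 ± 0.030 (adjusted p = 0.133).

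*Rps28*, a small subunit protein, had the smallest p for TG HFD/WT HFD in hippocampus. Its lowest, median and highest CPM were 49.7, 55.6 and 61.3 in WT HFD and 50.7, 56.4 and 65.8 in TG HFD, which overlap almost fully. The fitted log2 fold change was 0.22 ± 0.053 (adjusted p = 0.052) with surrogate variables and 0.069 ± 0.090 (adjusted p = 0.70) without. *Rps23*, whose protein lies in the decoding centre, had medians of 169 and 182 CPM and a log2 fold change of 0.16 ± 0.041 (adjusted p = 0.094), and of 0.16 ± 0.069 (adjusted p = 0.18) without surrogate variables. In brainstem *Rps23* had medians of 192 CPM in WT HFD and 186 CPM in TG HFD, and its fitted log2 fold change of 0.16 ± 0.040 (adjusted p = 0.25) turned to -0.017 ± 0.082 without surrogate variables. *Rpl21* was next in brainstem with 0.14 ± 0.045 (adjusted p = 0.64).

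In the diet comparisons, members with the smallest p were *Rps15a* (log2 fold change -0.10 ± 0.040) and *Rpl36a* (-0.097 ± 0.039) for WT in brainstem, *Rpl17* (0.086 ± 0.030) for TG in brainstem, *Rps28* (-0.12 ± 0.045) and *Rpl41* (-0.099 ± 0.041) for WT in hippocampus, and *Rps2* (-0.075 ± 0.028) and *Rpl35* (0.12 ± 0.045) for TG in hippocampus. The adjusted p in edgeR's test was at least 0.52 for each. For the interaction they were *Rps23* (0.14 ± 0.051) and *Rps3* (0.12 ± 0.046) in brainstem, with adjusted p = 0.99, and *Rps28* (0.20 ± 0.061) and *Rps2* (-0.14 ± 0.044) in hippocampus, with adjusted p = 0.63.

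**Figure D3:**
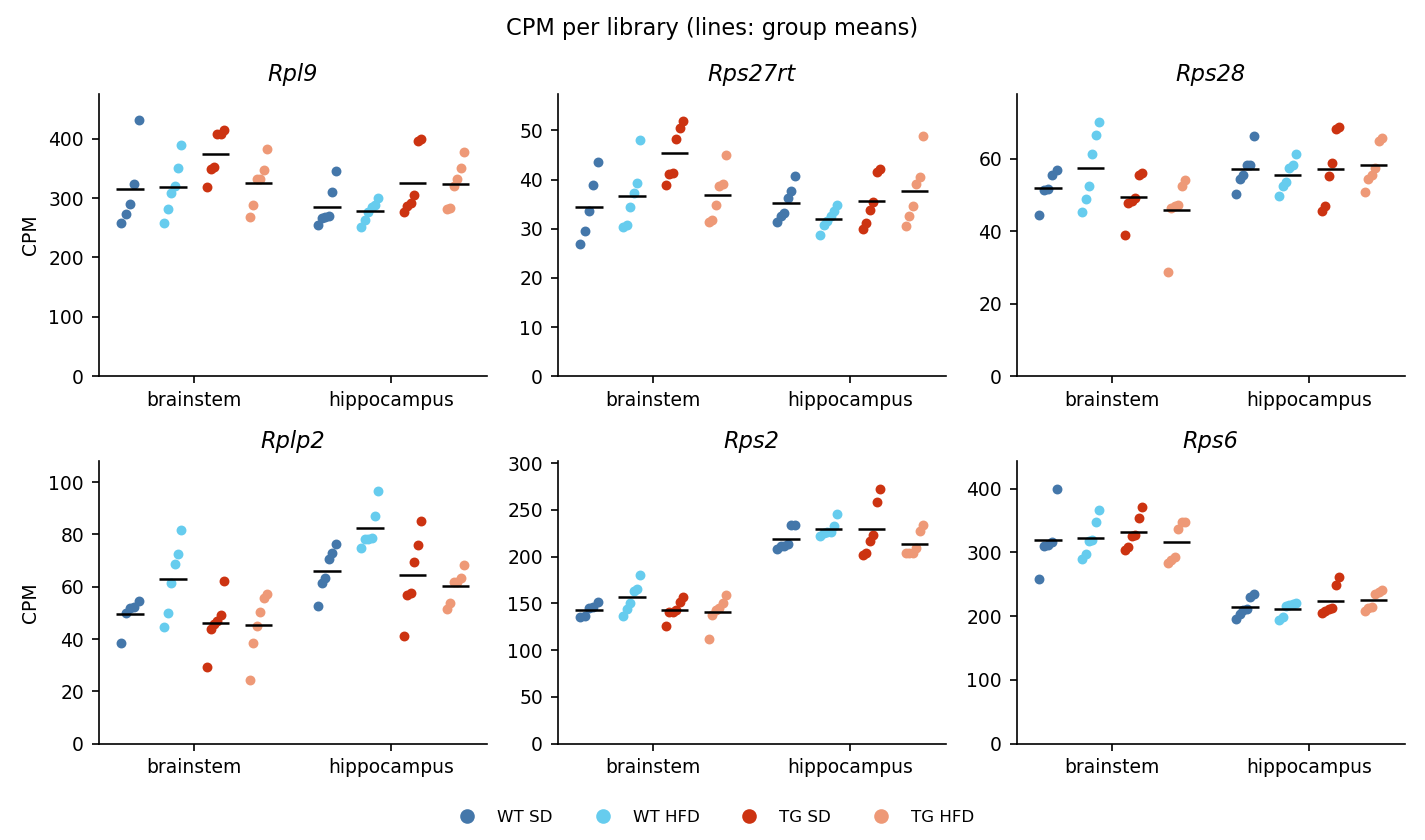
CPM per library (y axis, from 0), normalized within each region, for 6 members in the 4 groups of brainstem (left 4 columns of a panel) and hippocampus (right 4 columns), with black lines at group means. Groups of a region overlap for *Rpl9*, *Rps27rt*, *Rps28*, *Rps2* and *Rps6*, while for *Rplp2* in hippocampus WT HFD (75.0 to 96.5 CPM) lies above TG HFD (51.4 to 68.4 CPM).

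Members whose libraries did not overlap between groups were found only for TG HFD/WT HFD in hippocampus, 3 of 81 (3.70%) against 4.15% of all tested genes. *Rplp2* had 75.0, 78.4 and 96.5 CPM (lowest, median, highest) in WT HFD and 51.4, 61.9 and 68.4 in TG HFD. *Rpl36*, of the large subunit, had 46.6, 52.9 and 67.5 against 31.2, 36.3 and 42.6. *Rpl7* went the other way, with 186, 203 and 209 CPM in WT HFD and 209, 226 and 240 CPM in TG HFD. Without surrogate variables *Rplp2* was a DEG, with a log2 fold change of -0.45 ± 0.12 (edgeR, adjusted p = 0.016), where 3.88% of all tested genes were. With them it was -0.063 ± 0.069 (adjusted p = 0.79).

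The transcript's GC content separated the members in these libraries, a split made after the values were seen. The 27 members with the highest GC content (53.6% to 60.8%) include *Rplp1*, *Rplp2*, *Rpl36*, *Rps2*, *Rpl29* and *Rps28*, and the 27 with the lowest (40.6% to 49.3%) include *Rps27l*, *Rps24*, *Rpl23*, *Rps27a*, *Rpl5* and *Rpl9*. Without surrogate variables, TG HFD/WT HFD in brainstem had medians of -0.20 in the GC-rich members, with 0 of 27 above 0, and -0.0087 in the GC-poor members. In hippocampus the medians were 0.022 and 0.15. With surrogate variables, they were 0.056 and 0.067 in brainstem and 0.056 and 0.069 in hippocampus. As differences in group means of log2 CPM, all tested genes in these GC ranges had medians of -0.12 (GC-rich) and 0.069 (GC-poor) in brainstem. In hippocampus they were -0.10 and 0.058. On the same scale the members stood at -0.215 and -0.00807 in brainstem and at 0.0186 and 0.15 in hippocampus. GC-rich lay below GC-poor each time, but the GC-poor members in brainstem and the GC-rich members in hippocampus had the opposite sign to all tested genes.

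A slope on GC content was also computed for each library. Over all tested genes, the log2 deviation from the mean library changed per 10% of GC content by 0.12 ± 0.067 (SD) in WT HFD and -0.042 ± 0.16 in TG HFD of brainstem, and by 0.10 ± 0.076 and -0.057 ± 0.049 in hippocampus. In WT SD the slopes were 0.0077 ± 0.11 and 0.0052 ± 0.070, and in TG SD -0.082 ± 0.12 and -0.048 ± 0.095. The lowest slopes, -0.334 in a TG HFD and -0.296 in a TG SD library of brainstem, came with the lowest levels of GC-rich relative to GC-poor members, -0.966 and -0.885 (log2). The part of GC content in the genotype differences was not tested.

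**Figure D4:**
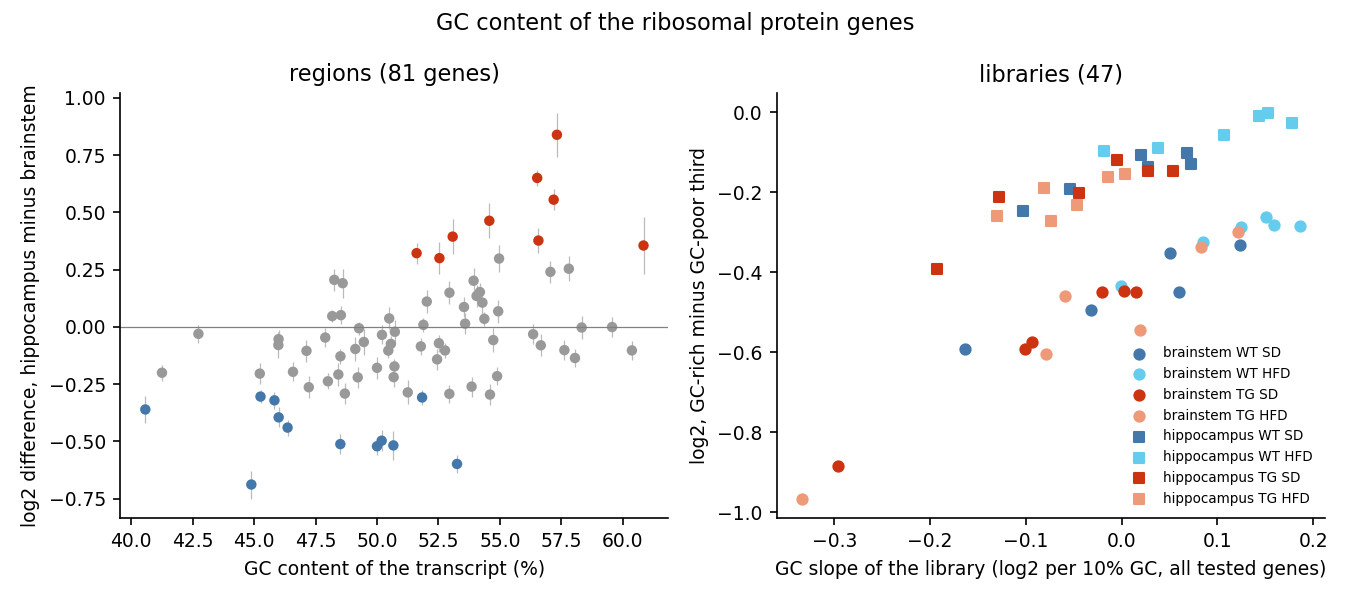
Left, log2 difference between hippocampus and brainstem (y axis, bars are SE) against GC content of the transcript (x axis, %) for the 81 members, with called members in red (higher) and blue (lower). Right, for all 47 libraries, the level of the GC-rich relative to the GC-poor 27 members (log2, y axis) against the GC slope of the library over all tested genes (x axis), where brainstem libraries (circles) reach down to -0.966 and hippocampus libraries (squares) stay at or above -0.391.

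The regions were compared in a joint fit of all 47 libraries without surrogate variables, as the mean of the 4 hippocampus groups minus the mean of the 4 brainstem groups. Of 81 members, 21 were called (25.9%), 9 higher and 12 lower in hippocampus, against 60.2% of 13458 tested genes (29.2% higher, 31.0% lower). The member median was -0.074 (log2), against -0.021 for all tested genes. The paper describes taking brainstem and hippocampus RNA from the animals of each group. Libraries of different regions can thus come from the same mouse. The labels do not tie mice across regions, so libraries entered as independent. The p-values between regions therefore take no account of shared mice. The medulla and hippocampus differ in cell types, and less mRNA per cell cannot be told apart from fewer cells of a type. Oligodendrocyte markers, for example, summed to 10176 to 17567 CPM in brainstem and 2442 to 3710 CPM in hippocampus.

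Higher in hippocampus were the acidic stalk proteins *Rplp1* and *Rplp2*, which recruit elongation factors. *Rplp1* had 56.5, 147 and 275 CPM (lowest, median, highest, jointly normalized) in brainstem and 153, 282 and 375 in hippocampus, ranges that overlap, and a log2 difference of 0.84 ± 0.096 (edgeR, adjusted p = 4.21e-11). *Rplp2* had 24.1, 49.3 and 80.4 against 41.7, 69.7 and 97.6 CPM (0.46 ± 0.077, adjusted p = 4.34e-07). With surrogate variables in the region fit its difference was 0.28, below the fold threshold. The third stalk protein, *Rplp0*, differed by 0.15 ± 0.049 (adjusted p = 0.00481), below the fold threshold.

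*Rps2*, at the mRNA entry channel of the small subunit, had 110, 143 and 178 CPM in brainstem and 206, 227 and 272 in hippocampus, with no overlap among 47 libraries and a log2 difference of 0.65 ± 0.034 (adjusted p = 3.52e-23). *Rpl29* had 41.4, 68.1 and 93.5 against 81.5, 103 and 123 CPM (0.56 ± 0.047, adjusted p = 2.17e-15), overlapping. *Rps29* differed by 0.39 ± 0.075 (adjusted p = 5.47e-06), and by 0.22, below the fold threshold, with surrogate variables in the region fit. The remaining higher members were *Rps19bp1* (0.38), *Rpl36* (0.36), *Rpl12* (0.32) and *Rps21* (0.30).

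Lower in hippocampus was *Rps27l*, a paralogue of *Rps27* known as a p53 target, with 8.12, 9.83 and 14.4 CPM in brainstem and 5.39, 6.00 and 8.38 in hippocampus. The ranges overlapped slightly, and the log2 difference was -0.69 ± 0.061 (adjusted p = 1.57e-14). Its parent *Rps27* differed by -0.021 ± 0.052 (adjusted p = 0.703) and *Rps27rt* by -0.079 ± 0.056 (adjusted p = 0.183).

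*Rps6* had 255, 313 and 397 CPM in brainstem and 199, 217 and 261 in hippocampus, barely overlapping, with a log2 difference of -0.52 ± 0.037 (adjusted p = 6.93e-18). *Rpl24*, which bridges the subunits, had 12.7, 16.2 and 21.9 against 9.0, 11.3 and 15.3 CPM (-0.52 ± 0.065, adjusted p = 4.89e-10). *Rps27a* had 205, 249 and 320 against 145, 168 and 211 CPM (-0.51 ± 0.043, adjusted p = 2.27e-15). Also lower were *Rpl26* (-0.50), *Rpl23* (-0.44), *Rps24* (-0.39), *Rpl22l1* (-0.36), *Rpl7* (-0.32), *Rpl14* (-0.31) and *Rps15a* (-0.30). *Rpl22*, the parent of *Rpl22l1*, differed by -0.0058 ± 0.028 (adjusted p = 0.846).

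Of the reference members chosen for their roles, *Rps6*, *Rps27a*, *Rplp1* and *Rplp2* were called, as given above. The others lay below the fold threshold. *Rpl11* differed by -0.29 ± 0.040, *Rpl38*, known for its role in translation of Hox mRNAs, by -0.26 ± 0.044, and *Rps25*, needed by some viral internal ribosome entry sites, by -0.20 ± 0.047, with adjusted p of at most 0.00011. *Rpl5* (-0.030 ± 0.040) and *Rpsa*, the laminin receptor, (-0.032 ± 0.043) had adjusted p = 0.476 and 0.486. Just inside and outside the fold threshold, *Rps15a* stood at -0.30 and *Rpl11* at -0.29.

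**Figure D5:**
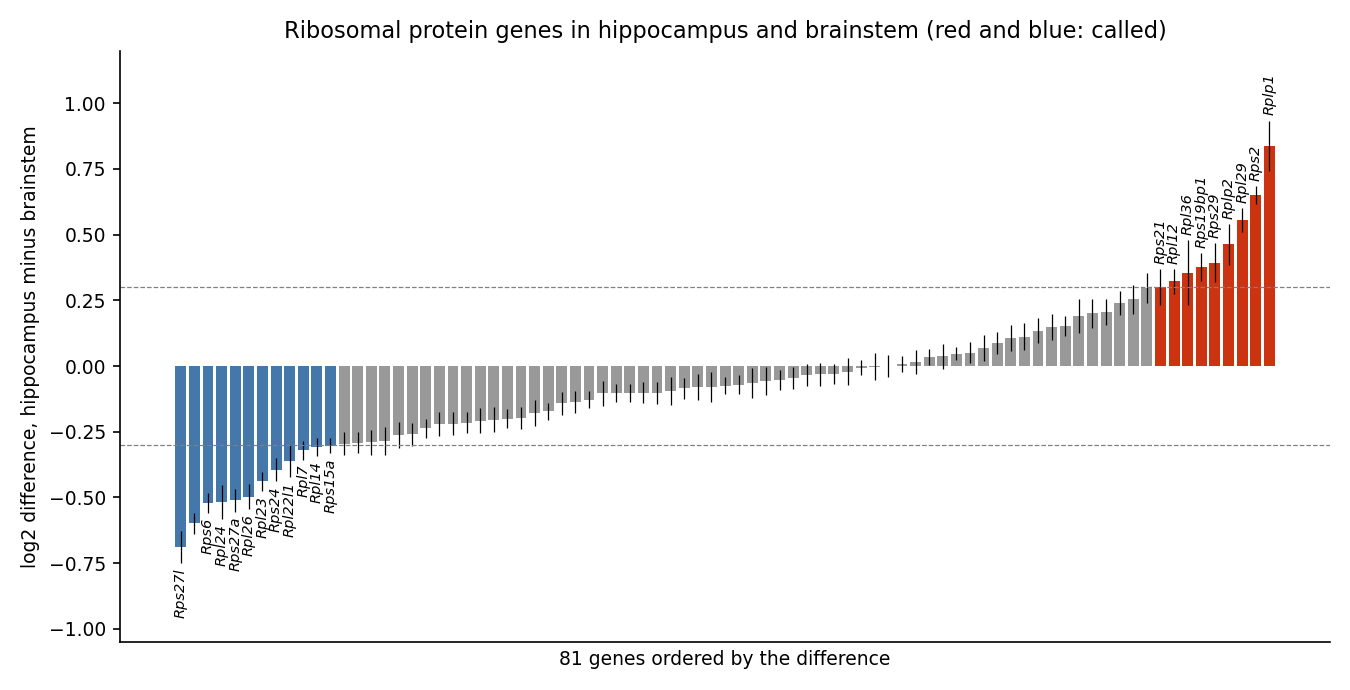
Log2 difference between hippocampus and brainstem (y axis, mean of 4 groups, bars are SE) of the 81 tested members in order of the difference (x axis), with called members in colour and all but 1 of them named and dashed lines at ±0.3. Differences run from -0.69 (*Rps27l*) to 0.84 (*Rplp1*).

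Of the 21 called members, 12 were called in the same direction in each of the 4 groups taken alone. No overlap of libraries between regions was seen for 2, *Rps2* among them. The shares of all tested genes for these counts are not given here, so they do not set the members apart. *Rpl36* was called in none of the 4 groups. WT HFD gave 5 members higher and 23 lower in hippocampus (median -0.15, against 61.5% of all tested genes called), WT SD 8 and 11 (-0.070, 59.5%), TG SD 11 and 13 (-0.051, 60.8%), and TG HFD 12 and 8 (0.017, 58.6%). Differences between these groups were not tested.

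By GC content, 6 of the 27 GC-rich members were higher and 0 lower in hippocampus, with a median of 0.068, and 0 of the 27 GC-poor members were higher and 7 lower, with a median of -0.20. The medians of all tested genes in these ranges, as differences of group means, were 0.089 and -0.074, beside 0.072 and -0.20 for the members on the same scale. The part of GC content in the region difference was not tested. The member median between regions was -0.098 after a GC correction. The TOP motif stood at a start of 2 of the 5 higher and 3 of the 9 lower members with a RefSeq promoter. Over all members it stood at 14 of 77 starts (18.2%), counted by start and not by gene. *Rps21* was counted by its start with the motif.

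Other genes of translation were taken from fixed lists, whose calls between regions stand against 60.2% of all tested genes called (29.2% higher, 31.0% lower). *Rack1* and *Fau*, ribosomal proteins outside the symbol rule, differed between regions by 0.086 ± 0.038 and 0.17 ± 0.067, and neither was called within a region. Of 37 listed genes of ribosome biogenesis, 36 were tested between regions, with 10 called higher and 8 lower in hippocampus. *Bop1* (0.99 ± 0.038), which takes part in large subunit maturation, and *Ubtf* (0.93 ± 0.029), a factor of RNA polymerase I, were higher, and the nucleolar genes *Nop56* (-0.52 ± 0.027) and *Npm1* (-0.46 ± 0.028) lower. Of 11 elongation factors and other TOP mRNA genes, 2 were higher, *Eef1a1* (0.57 ± 0.040) and the poly(A) binding protein gene *Pabpc1* (0.58 ± 0.024), and 5 lower, among them *Tpt1* (-0.75 ± 0.034). Initiation factors gave 5 higher and 4 lower of 26, and the mTOR pathway 4 and 6 of 19. Complex I genes gave 1 higher and 27 lower of 45 (median -0.41), proteasome subunits 0 and 13 of 35 (-0.22), and mitochondrial ribosomal proteins 3 and 29 of 76 (-0.18).

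Within regions, these lists held no DEG in any comparison. In hippocampus the median of the elongation and TOP mRNA list was 0.036 for TG SD/WT SD and 0.056 for TG HFD/WT HFD, with 3 of 11 higher and 0 lower by unadjusted p in each, namely *Eef1a2*, *Hnrnpa1* and *Eef1g*, against 9.08% and 11.3% of all tested genes in either direction. Mitochondrial ribosomal proteins had medians of 0.0017 and -0.0049 in the same comparisons and the mTOR pathway -0.016 and -0.037.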

How the data were processed

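Poly(A) RNA of brainstem (23 libraries) and hippocampus (24) was sequenced as 75-base single-end reads. The authors deposited raw read counts per Ensembl gene, one table per region. Per the submitters' processing notes FastQC 0.11.9, STAR 2.7.9a and DESeq2 1.32.0 were used. The counting step and the treatment of reads that match several copies are not given in the sources used here. Of the WT SD brainstem samples, 1 failed the study's RNA quality limit. Ensembl identifiers were named from GENCODE vM21, in which 529 of 33139 brainstem and 456 of 31751 hippocampus identifiers had no match. Transcript length, GC content and shared windows came from the same annotation (GRCm38), promoters from RefSeq.

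Genes averaging 50 or more counts were fitted in edgeR 4.0.16 (R 4.3.3, limma 3.58.1) with TMM normalization, the quasi-likelihood test and 4 surrogate variables per region (sva 3.50.0). p-values were adjusted over all tested genes by Benjamini-Hochberg. Regions were compared in a joint fit without surrogate variables, with the same thresholds. Nothing says which libraries share a litter or day, so p-values measure the spread between these samples. Named genes were, per comparison within a region, the 2 members with the smallest p, between regions the 5 called members with the largest difference in each direction, the 3 highest and 3 lowest tested levels per region, paralogues with their parents, and reference members and non-members chosen for their roles. The other called members between regions, the members named by GC content, shared windows or lack of overlap, and the list genes were named after their values were seen. The members and lists were chosen with earlier results of these data known. Alternatives were other numbers of surrogate variables, DESeq2 1.42.0, other normalizations and filters, a GC correction, a replicate block and leaving out each library. The scripts were tested on simulated data. Results of some genes that these rules would name are not reported here.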

Additional observations from a re-analysis of the deposited data

Results flagged for a closer look

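Of 64 groups of library values examined, 1 held a library far from the others. The genes examined were *Rpl9*, *Rps27rt*, *Rps23*, *Rps28*, *Rps2*, *Rplp1* and *Rps6*, and other members were not. Among those others, the highest brainstem library of WT SD also stood apart for *Rps27l* (14.6 CPM, the next 10) and *Rps15a* (226 CPM, the next 177). It did so too for *Rpl24* (21.8, the next 14.7) and *Rpl35* (73.9, the next 53.3). The lowest brainstem library of TG HFD stood apart for *Rpl29* (42.1 CPM, the next 64.4). These are examples and not a full count. The member mean reached 7.19 (the next 6.97) in WT SD and 6.60 (the next 6.83) in TG HFD of brainstem. *Rps28* in brainstem of TG HFD had a lowest library of 28.7 CPM, and the next was 46.4 CPM. The gap took 0.701 of the range of the group, above Dixon's critical value of 0.625 for 6 samples. Chance flags about 1 in 20 groups.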

How the results depend on the processing

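With no fold threshold, 1 of 81 members was called for TG SD/WT SD in each region. All tested genes gave 0.247% in brainstem and 0.151% in hippocampus. Between regions 58 of 81 were called, against 86.8% of all tested genes. For TG HFD/WT HFD in hippocampus, 1 of 81 members was called without surrogate variables, against 3.88% of all tested genes. That member was *Rplp2*, lower in TG. With 2 surrogate variables 3 were called, all lower in TG, namely *Rplp2* (log2 fold change -0.45), *Rplp1* (-0.44) and *Rpl36* (-0.56). By DESeq2 without surrogate variables 1 was called, *Rplp2* (-0.45). With a GC correction without surrogate variables 1 was called, *Rps19*, which was higher in TG (0.39). The shares of all tested genes under these last settings are not given here. Among tested members with at most 50% shared windows, 13 of 41 were called between regions. With surrogate variables in the region fit, *Rplp2* (0.28) and *Rps29* (0.22) no longer reached the fold threshold. Leaving out 1 library at a time gave 0 to 1 members for TG SD/WT SD in brainstem (*Rps27rt*, called without TG SD replicate 7, WT SD replicate 4 or WT SD replicate 7) and 19 to 24 between regions.

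Member medians of several comparisons turned under some alternatives. Over 11 alternatives they ran from -0.018 to 0.026 for TG SD/WT SD, -0.044 to 0.053 for WT HFD/WT SD and -0.066 to 0.038 for TG HFD/TG SD in brainstem, and from -0.036 to 0.0082 for WT HFD/WT SD, -0.011 to 0.020 for TG HFD/TG SD and -0.0016 to 0.035 for the interaction in hippocampus. In brainstem the median of TG HFD/WT HFD was -0.099 without surrogate variables, -0.10 by DESeq2 without them, -0.075 with a GC correction and -0.036 with 2 surrogate variables. The interaction median was -0.13, -0.13 and -0.12 without surrogate variables, by DESeq2 without them and with a GC correction. In that order *Rps23* turned to -0.017, -0.021 and -0.079 for TG HFD/WT HFD and to -0.068, -0.071 and -0.10 for the interaction, *Rps3* to -0.088, -0.091 and -0.11 for the interaction, and *Rpl17* to -0.066, -0.066 and -0.058 for TG HFD/TG SD. The cause was not tested. In hippocampus the median stayed between 0.044 and 0.060 for TG SD/WT SD and between 0.052 and 0.10 for TG HFD/WT HFD over 11 alternatives, and between 0.035 and 0.075 and 0.038 and 0.093 when 1 library was left out.

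The numbers in the library titles were not taken to pair libraries, since nothing says that they mark a shared litter, batch or day. Not every same-numbered pair correlated above 0.1, which does not decide this. The median correlation of deviations from group means was 0.039 for same-numbered and -0.026 for other pairs in brainstem (10 of 26 and 60 of 172 above 0.1), and 0.065 and -0.041 in hippocampus (15 of 36 and 43 of 180). In hippocampus the member mean of replicates 4, 7 and 8 lay below its group mean in all 4 groups, and in brainstem that of replicate 8 did. With the replicate number as a block, 0 members were called in each comparison within a region, *Rps27rt* had an adjusted p of 0.24 in edgeR's test and *Rpl9* in hippocampus 0.059. The alternatives with 3 surrogate variables, with DESeq2 and no surrogate variables, and with members sharing at most 50% of windows were chosen after seeing the data. Depth limits *Rps10*, *Rpl3l*, *Rpl39l* and *Rpl36al*, which were not tested.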
